A study of Mus musculus with 12 samples.

Results

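Scin, which encodes scinderin (adseverin), and its relatives Gsn, Flii, Svil, Vill and Avil were followed in regulatory T cells (Tregs). The 6 genes were picked by symbol out of the 26609 genes counted, and all 6 were found. Scin led to the choice because it was low in the libraries titled KO, so its KO and WT levels are given as a description with no test. The relatives were chosen for their kinship with Scin, and the question was whether they were low in the same libraries.

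Tregs were sorted as CD4+CD25hiCD127lo singlets from mesenteric lymph nodes of untreated SAMP/YitFC mice, a strain known for ileitis that arises without treatment. The groups were KO male, KO female, WT male and WT female, with 3 libraries each. KO denotes ERb-KO, a global loss of estrogen receptor beta (gene Esr2), on the SAMP/YitFC background, and WT mice of the same line kept the receptor. The age of the mice and the construction of the KO allele are given by no label. Nothing states that every library is a mouse of its own, so each p-value reflects the spread among libraries, which may be technical.

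Gelsolin family proteins are built from repeats of one actin-binding domain. Many of them respond to calcium, cut actin filaments and then cap the fast-growing (barbed) end, which loosens the actin network under the membrane. Scinderin is known for opening the cortical actin of secretory cells such as chromaffin cells, and in mouse lymphoid tissue Scin is known as a gene that ligands of the aryl hydrocarbon receptor (AhR) induce. Gelsolin, from Gsn, is the founding member and also has a form secreted into plasma. Advillin, from Avil, is best known from sensory neurons, and villin-like protein, from Vill, resembles the microvillus protein villin. Flightless I, from Flii, joins gelsolin repeats to leucine-rich repeats and can act as a coactivator of nuclear receptors, among them estrogen receptors. Supervillin, from Svil, is a large protein that ties actin and myosin to the membrane.

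The libraries held between 10.2 M and 16.75 M counts, and 3 counts, the limit that a count of 0 allows, corresponded to between 0.176 and 0.291 CPM, which are counts scaled to a library of 1 M. Such limits cover counting error only. Treg markers were present in every library: Foxp3 averaged 754.7 ± 122 CPM and Il2ra 788 ± 161 CPM (SD, n = 12), and Il7r, which encodes CD127, averaged 186 ± 32.8 CPM. Counts of the targeted gene did not follow the titles. Since the construction of the KO allele is not given, Esr2 counts cannot decide whether a title is right. Esr2 had 8, 2 and 95 counts in KO males and 161, 94 and 128 in KO females, against 0, 1 and 14 in WT males and 0, 133 and 159 in WT females. Of the 12 libraries, 4 went against their titled sex by Xist and Y-linked counts, namely KO male 1, KO male 2, KO female 1 and WT female 2. The name KO therefore means the title of a library below, and log2 fold changes without those 4 libraries stand beside the averaged KO minus WT results of the tested members. Without those 4, KO male 3 is the only KO male library left. Values without them therefore have no replicate for KO males, and calls or adjusted p from them carry that limit. All WT libraries precede all KO libraries in the numbering, so genotype and any effect that follows this order cannot be told apart.

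Scin lies on the minus strand of chromosome 12, from 40059769 to 40134228 (GRCm38). The 250 bases before its start, chr12:40134229-40134478 in GRCm38.p6, are shown because they hold the core letters that the AhR binds, and because the design concerns an estrogen receptor. The sequence is from RefSeq, 5′ to 3′ on the minus strand, with the match to GCGTG in capitals, which lies 35 to 31 bases before the start.
Scin promoter: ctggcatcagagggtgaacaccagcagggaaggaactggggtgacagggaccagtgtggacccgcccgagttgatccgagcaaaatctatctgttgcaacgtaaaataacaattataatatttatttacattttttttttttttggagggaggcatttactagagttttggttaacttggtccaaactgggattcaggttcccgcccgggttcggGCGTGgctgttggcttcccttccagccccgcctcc
GCGTG, searched on both strands (as CACGC on the other), is also found in 28.2% of 32851 promoter windows of the same length. The estrogen response element, which is GGTCA and TGACC with any 3 bases between them, was found in 0.0639% of those windows and a single arm of it, GGTCA or TGACC, in 35.2%. Neither was found in the Scin window, which says only that these letters are not in it.

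Scin, a calcium-dependent filament-severing protein, was low in every library titled KO. It was 4.12, 3.46 and 5.82 CPM in KO males and 3.51, 4.20 and 3.10 CPM in KO females. It was 14.1, 24.1 and 16.2 CPM in WT males and 15.5, 15.2 and 11.5 CPM in WT females. The groups did not overlap: the lowest WT library, WT female 3, was 1.98-fold above the highest KO library, KO male 3. The means were 4.03 ± 0.97 CPM in KO and 16.1 ± 4.26 CPM in WT (SD, n = 6 each), from 294 KO counts and 1453 WT counts in all. The log2 fold change, KO minus WT averaged over titled sex, was -1.99 (SE 0.22), which is 0.251 of the WT level, and -1.78 (SE 0.31) without the 4 libraries named above. In this comparison 206 of 13692 genes tested, 1.50%, had an adjusted p under 0.05 by edgeR's quasi-likelihood test, and all 6 KO libraries were lower than every WT library for 196 genes, 1.43%. Counting both directions, KO and WT libraries did not overlap for 2.40% of genes. These shares are background only, since Scin was chosen on this contrast.

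**Figure D1:**
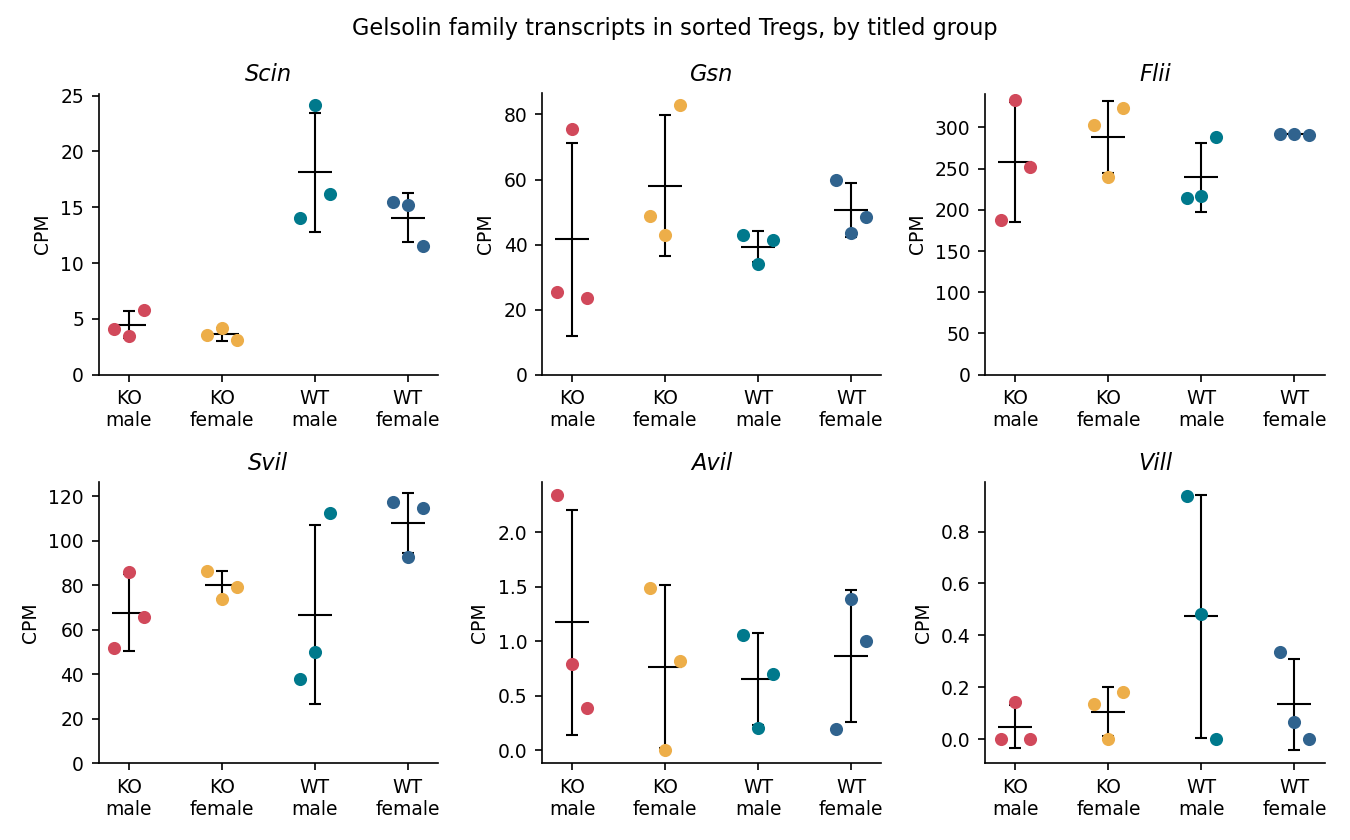
CPM of the 6 gelsolin family genes in each library, by titled group, with the group mean and SD (n = 3). Each panel has its own linear scale. Scin in KO libraries stays at or below 5.82 CPM and in WT libraries at or above 11.5 CPM, while KO and WT libraries of the other 5 genes overlap.

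Scin followed the titled genotype and neither the Esr2 counts nor the sex-linked transcripts. Its match to the titles was built in, since Scin was chosen on that contrast, so the levels below are a description only. What governs Scin was not tested. Among KO libraries, KO male 2 had 0.144 CPM of Esr2 and KO female 3 had 11.7 CPM, and their Scin levels were 3.46 and 3.10 CPM. Among WT libraries, WT female 1 had no Esr2 count and WT female 3 had 12.3 CPM, and their Scin levels were 15.5 and 11.5 CPM. High Esr2 thus stood beside low Scin in KO libraries and beside high Scin in WT libraries. WT female 2, with Y-linked counts of 5501, had 15.2 CPM of Scin, and KO male 1, with 3864 Xist counts, had 4.12 CPM.

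**Figure D2:**
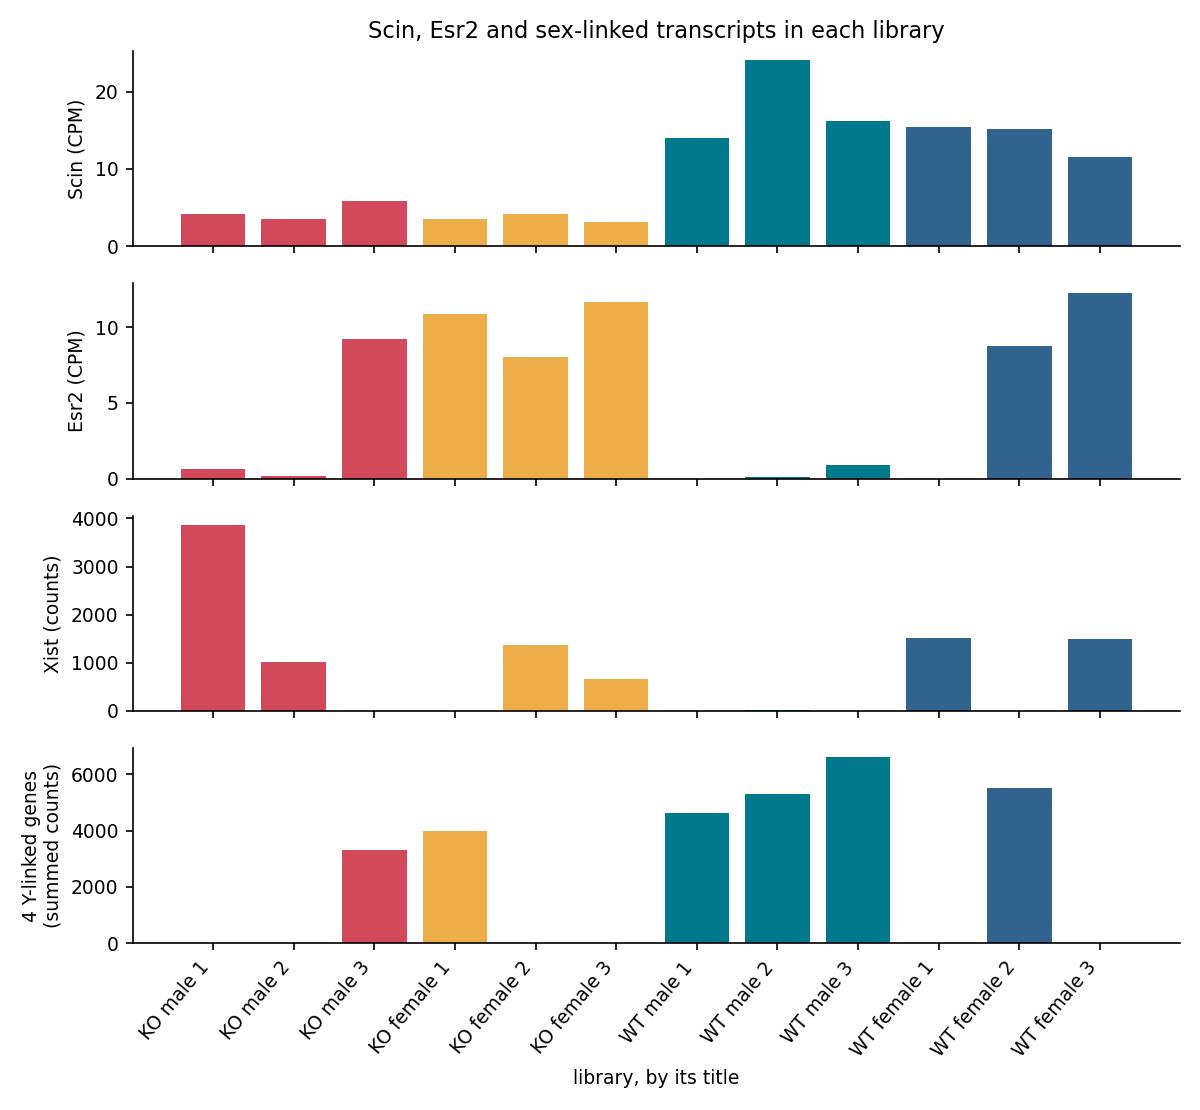
Scin and Esr2 in CPM, Xist counts and the summed counts of 4 Y-linked genes in each of the 12 libraries, named by title, with KO libraries on the left and WT libraries on the right. The step in Scin falls between the titled genotypes, the contrast on which Scin was chosen, while the bars of the other panels mix across titles.

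The size of the Scin difference was close in the titled sexes, given as a description for the KO and WT contrasts. The log2 fold change was -2.02 (SE 0.31) in males and -1.96 (SE 0.31) in females. Without the 4 libraries it was -1.66 (SE 0.47) in males, where KO male 3 was the only KO library, and -1.89 (SE 0.38) in females. The interaction, KO effect of females minus KO effect of males, was 0.06 (SE 0.43, 95% interval -0.864 to 0.985, adjusted p = 0.988 by edgeR), and -0.23 without the 4 libraries. The interval is wide and does not show the effects of the sexes to be alike. Averaged over genotype, Scin was 8.83 ± 5.91 CPM in titled females and 11.3 ± 8.23 CPM in titled males (SD, n = 6 each), and female minus male was -0.33 (SE 0.21, 95% interval -0.792 to 0.124, adjusted p = 0.674 by edgeR), and -0.53 without the 4 libraries. With all 12 libraries, edgeR called no gene of the 13692 for either of these comparisons, a share of 0%, where 659 and 966 genes had an unadjusted p under 0.05 and DESeq2 called 3 and 5.

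Gsn, the founding severing and capping protein, did not show the pattern of Scin. It lies on the plus strand of chromosome 2, from 35256380 to 35307892 (GRCm38). It was 25.5, 75.7 and 23.6 CPM in KO males and 48.7, 42.8 and 82.9 CPM in KO females, against 43.0, 33.9 and 41.3 CPM in WT males and 59.8, 43.4 and 48.6 CPM in WT females. KO libraries held both the highest and the lowest levels: 2 lay above every WT library and 2 below every WT library. The means were 49.8 ± 24.9 CPM in KO and 45.01 ± 8.68 CPM in WT (SD, n = 6 each). The log2 fold change was 0.14 (SE 0.26, 95% interval -0.415 to 0.694, adjusted p = 0.843 by edgeR) and -0.28 (SE 0.23, adjusted p = 0.543) without the 4 libraries. Its direction also turned in limma on all 12 libraries (-0.002361) and without KO female 3 (-0.036), which is not one of the 4. KO male 2, the library behind the 75.7 CPM, is one of those 4, and without it alone the value was -0.25.

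Avil, which encodes another severing protein, was close to the limit of detection. It lies on the plus strand of chromosome 10, from 127000709 to 127020994. It had 29, 11 and 4 counts in KO males and 22, 0 and 9 in KO females, against 18, 3 and 11 in WT males and 3, 21 and 13 in WT females. The groups overlapped across their range, and its log2 fold change of 0.34 (SE 0.78, 95% interval -1.32 to 2.00, adjusted p = 0.873 by edgeR) turned to -0.66 (SE 1.28) without the 4 libraries. Avil shares 165 exonic bases with Tsfm on the opposite strand, and the library kit does not mark the strand, so part of these reads cannot be told apart from Tsfm.

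Vill, for villin-like protein, was the member that failed the filter on low counts. It lies on the plus strand of chromosome 9, from 119052778 to 119071525. It had 0, 2 and 0 counts in KO males and 2, 0 and 2 in KO females, against 16, 7 and 0 in WT males and 5, 1 and 0 in WT females. Counts appeared in 3 KO libraries and 4 WT libraries, 6 counts against 29 in all, and WT male 1 gave most of them. The means were 0.077 CPM in KO and 0.303 CPM in WT. The difference on the log2(CPM + 1) scale was -0.235 (two-sided exact permutation test, p = 0.197, smallest possible 0.00216), which did not pass. Adding 1 flattens differences at such low levels, so this value cannot be set beside the log2 fold changes of the other members. The counts are too few to tell a fall like that of Scin from none.

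Flii, which can act as a coactivator of nuclear receptors, was the most even of the members. It lies on the minus strand of chromosome 11, from 60714123 to 60727263. It was 188, 334 and 252 CPM in KO males and 302, 240 and 323 CPM in KO females, against 214, 216 and 288 CPM in WT males and 292, 292 and 291 CPM in WT females. The KO range reached past the WT range at both ends, and the WT female libraries lay within 1 CPM of one another. The means were 273 ± 56.3 CPM in KO and 265 ± 39.0 CPM in WT (SD, n = 6 each), with a log2 fold change of 0.05 (SE 0.14, 95% interval -0.254 to 0.347, adjusted p = 0.906 by edgeR) and -0.01 without the 4 libraries. Flii shares 64 exonic bases with Llgl1 on the opposite strand.

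Svil, the membrane-linked member, had its wider spread in WT. It lies on the plus strand of chromosome 18. It was 51.6, 85.8 and 65.6 CPM in KO males and 86.4, 73.9 and 79.4 CPM in KO females, against 37.7, 49.8 and 113 CPM in WT males and 117, 92.7 and 115 CPM in WT females. Of the WT libraries, 4 lay above every KO library and 2, both WT males, lay below every KO library. The means were 73.8 ± 13.4 CPM in KO and 87.4 ± 35.2 CPM in WT (SD, n = 6 each), with a log2 fold change of -0.21 (SE 0.22, 95% interval -0.674 to 0.26, adjusted p = 0.690 by edgeR) and -0.33 (SE 0.32, adjusted p = 0.629) without the 4 libraries. By titled sex, Svil was 94.1 ± 18.1 CPM in females and 67.2 ± 27.7 CPM in males (SD, n = 6 each), with a log2 fold change of 0.47 (SE 0.22, unadjusted p = 0.0497, adjusted p = 0.662 by edgeR). Both titled groups hold libraries that go against their titled sex, among the 4 named above. This contrast therefore compares titles and does not measure a difference between the sexes.

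None of the 4 relatives tested was called for KO minus WT averaged over sex, where 1.50% of all genes were, and none had an unadjusted p under 0.05 or was called by DESeq2. Their median log2 fold change was 0.09, beside 0.02 over all genes tested. For KO minus WT within males the relatives again gave 0 calls, by edgeR and by DESeq2, where edgeR called 0.0730% of all genes. Within females edgeR called no gene at all (0%), although 1055 genes had an unadjusted p under 0.05 and DESeq2 called 23, none of them a relative. DESeq2 gave Avil no adjusted p within females, so Avil could not be called there. For the average over sex with all 12 libraries, the lowest interval bound among the relatives was that of Avil, -1.32, above the Scin value of -1.99. Within females the Avil interval, -2.5 to 2.2, held the Scin value of -1.96, so a change of that size in Avil could not be told from none. The intervals leave room for smaller changes in the other tested relatives, and Vill, which failed the filter, has no interval. The difference between genes in their fold changes was not tested.

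Expressed per length (RPKM, the CPM divided by the kilobases of merged exons), the members spanned a wide range of levels. Over the 12 libraries Flii averaged 53.5 RPKM, Gsn 15.02, Svil 7.53, Scin 3.36, Avil 0.255 and Vill 0.043 RPKM. Flii lay above Gsn, Gsn above Svil and Scin above Avil in all 12 libraries. Svil lay above Scin in 10 libraries, all 6 KO libraries among them, and the exceptions were WT male 1 and WT male 2. Avil lay above Vill in 9 libraries. Scin averaged 1.34 ± 0.32 RPKM in KO and 5.37 ± 1.42 RPKM in WT, and Svil averaged 6.90 ± 1.25 RPKM in KO and 8.17 ± 3.29 RPKM in WT (SD, n = 6 each).

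The spread within titled groups is given as a description. Scin was chosen on the contrast between titled genotypes, a choice that favours genes with a small spread within groups. The within-group SD of log2 CPM was 0.265 for Flii, 0.315 for Scin, 0.461 for Svil, 0.552 for Gsn and 1.3 for Avil. From the lowest to the highest library Flii varied 1.77-fold, Svil 3.1-fold and Gsn 3.5-fold, while Scin varied 7.48-fold. These SDs and folds come from log2 CPM with a small count added, which narrows the range of genes with few counts. The Scin CPM without it ran from 3.10 to 24.1. The Scin range lay in the step between titled genotypes, the contrast on which it was chosen. That of Gsn lay inside the KO groups, which held both its lowest and its highest library.

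Likeness of pattern was measured as the mean absolute difference of standardised log2 CPM over the 12 libraries, in SD units, so that 0 is identity, among the 12267 genes averaging at least 1 CPM. Scin stood 0.996 from Svil, 1.14 from Flii and 1.24 from Gsn, and the median distance of all genes from Scin was 1.11. Flii stood 0.541 from Svil and 0.562 from Gsn, which were closer than the distances of Scin to any of them. All points share the same libraries, and Gsn and Flii were both high in KO male 2 and KO female 3 and both low in KO male 1. The 5 genes most like Scin were Far1 (0.243), Ube2w (0.269), 1110002B05Rik (0.296), Snx4 (0.298) and Phospho2 (0.305), none of them a gelsolin relative. Avil and Vill averaged 0.866 and 0.190 CPM, under the limit of 1 CPM, and could not appear in this list. Measured separately, Avil stood 1.17 from Scin. Far1, a fatty acyl-CoA reductase, was 72.6 to 94.6 CPM in KO and 133 to 174 CPM in WT, a log2 fold change of -0.90. Ube2w, a ubiquitin-conjugating enzyme, was 21.4 to 27.4 CPM in KO and 31.7 to 36.9 CPM in WT. Snx4, a sorting nexin of endosomes, was 124 to 146 CPM in KO and 155 to 171 CPM in WT. The likeness is in shape and not in size, since Scin differed more, on the log2 scale, than any of these 5. The 5 genes were picked for likeness to Scin over these same libraries, and Scin was chosen on the KO and WT titles. Their shared step between KO and WT therefore follows from the choice. For 1.43% of all genes tested, every KO library lay below every WT library.

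**Figure D3:**
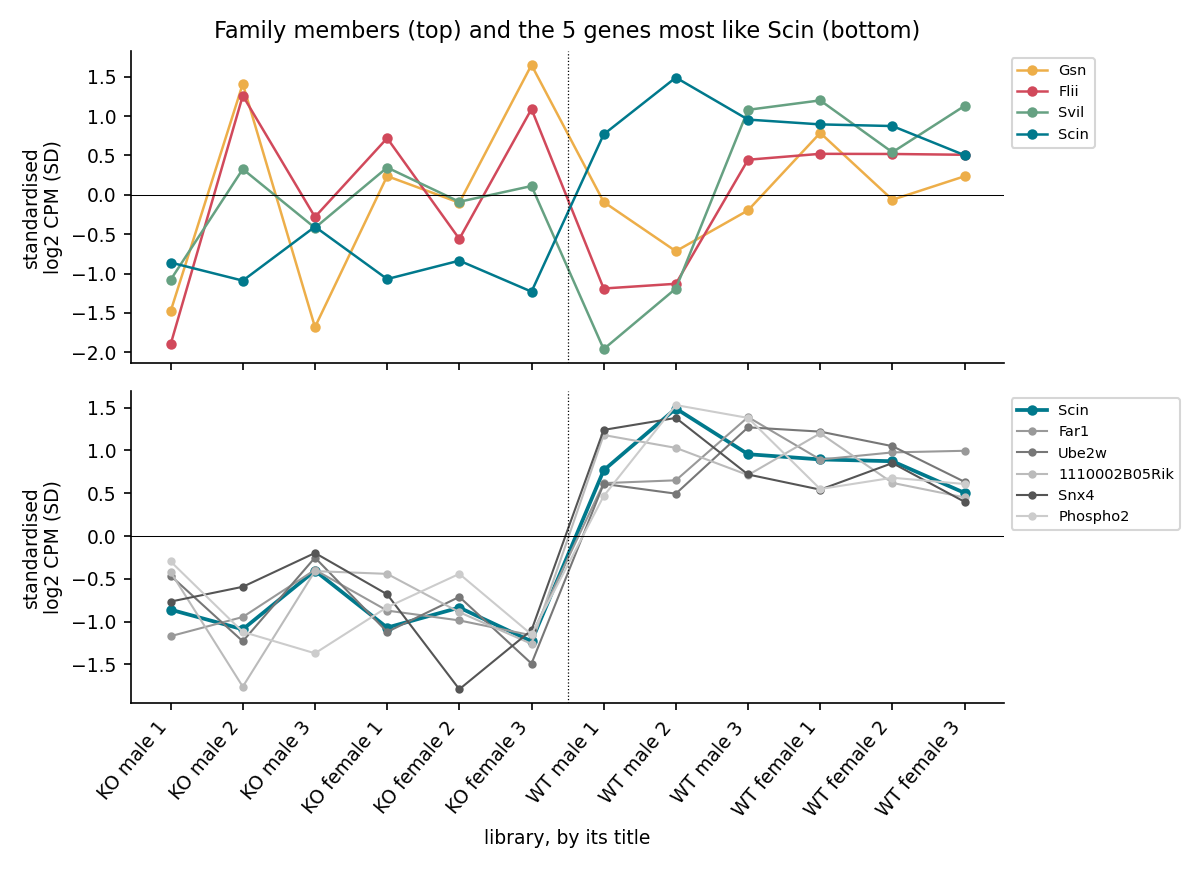
Standardised log2 CPM (SD units) of Scin, Gsn, Flii and Svil (top) and of Scin with the 5 genes most like it (bottom) in each library, KO on the left and WT on the right of the dotted line. Lines join the points of 1 gene and imply no order of libraries. Scin and the 5 genes lie below 0 in every KO library and above 0 in every WT library, while Gsn, Flii and Svil cross 0 within groups. The 5 genes were picked for their likeness to Scin over these same libraries, so their shared step follows from the choice.

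Beyond the family, 82 other actin regulators were listed by role and 72 could be tested. Of these, 3 were lower in KO and none higher (edgeR, adjusted p under 0.05), where 0.898% of all genes tested were lower and 0.606% higher. Their median log2 fold change was -0.09, beside 0.02 over all genes, and 49 of the 72 were negative, beside 6538 of 13692 over all genes tested. Abi1, a subunit of the WAVE complex that switches on filament branching, was 131 ± 29.6 CPM in KO and 208 ± 18.2 CPM in WT, with a log2 fold change of -0.67 (SE 0.13, adjusted p = 0.0247). Actb, cytoplasmic beta-actin, was 2322 ± 463 CPM in KO and 3518 ± 499 CPM in WT, with a log2 fold change of -0.61 (SE 0.13, adjusted p = 0.0362). It has many processed pseudogenes, so its count is uncertain. Tmod3, which caps the slow-growing (pointed) filament end, was 151 ± 5.87 CPM in KO and 205 ± 17.4 CPM in WT, with a log2 fold change of -0.44 (SE 0.10, adjusted p = 0.0382, edgeR; n = 6 each for all 3 genes). Without the 4 libraries the log2 fold changes were -0.70 for Abi1, -0.74 for Actb and -0.48 for Tmod3, and none of the 3 was called, with adjusted p of 0.0942, 0.069 and 0.114 (edgeR). Leaving out 1 library left 0 calls among the listed regulators for WT male 2, WT male 3, WT female 1, WT female 3, KO female 1 or KO female 3, and 1 call for WT female 2, KO male 3 or KO female 2. It left 2 calls for WT male 1, 3 for KO male 1 and 7 for KO male 2.

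Among the remaining groups, values are given for the gene with the smallest p, none of them called by edgeR. Outside the 6 members, gelsolin repeats are carried by Capg, a barbed-end capping protein of myeloid and lymphoid cells, and by the villin gene Vil1. Capg was 310 ± 44.7 CPM in KO and 386 ± 46.0 CPM in WT, with a log2 fold change of -0.31 (SE 0.11, adjusted p = 0.18), and among the alternatives run it passed only when KO male 2 was left out (-0.40, adjusted p = 0.0291). Without the 4 libraries Capg was -0.45 (adjusted p = 0.122). Vil1 was 1.18 ± 1.46 CPM in KO and 0.73 ± 0.21 CPM in WT (SD, n = 6 each), with an adjusted p of 0.945 by edgeR. Twf1 (twinfilin, barbed-end capping) had a log2 fold change of -0.49 (adjusted p = 0.0585), Lcp1 (L-plastin, bundling) -0.44 (0.112), Rdx (radixin, membrane linkage) -0.38 (0.148) and Arpc5 (Arp2/3 complex) -0.27 (0.192). Coro1c (a coronin) had -0.29 (0.397), Limk2 (the kinase that inactivates cofilin) 0.23 (0.281), Tmsb10 (a thymosin that binds actin monomers) 0.36 (0.551) and Fhod1 (a formin) 0.67 (0.345). Of these 10 genes, 6 had negative and 4 positive values.

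**Figure D4:**
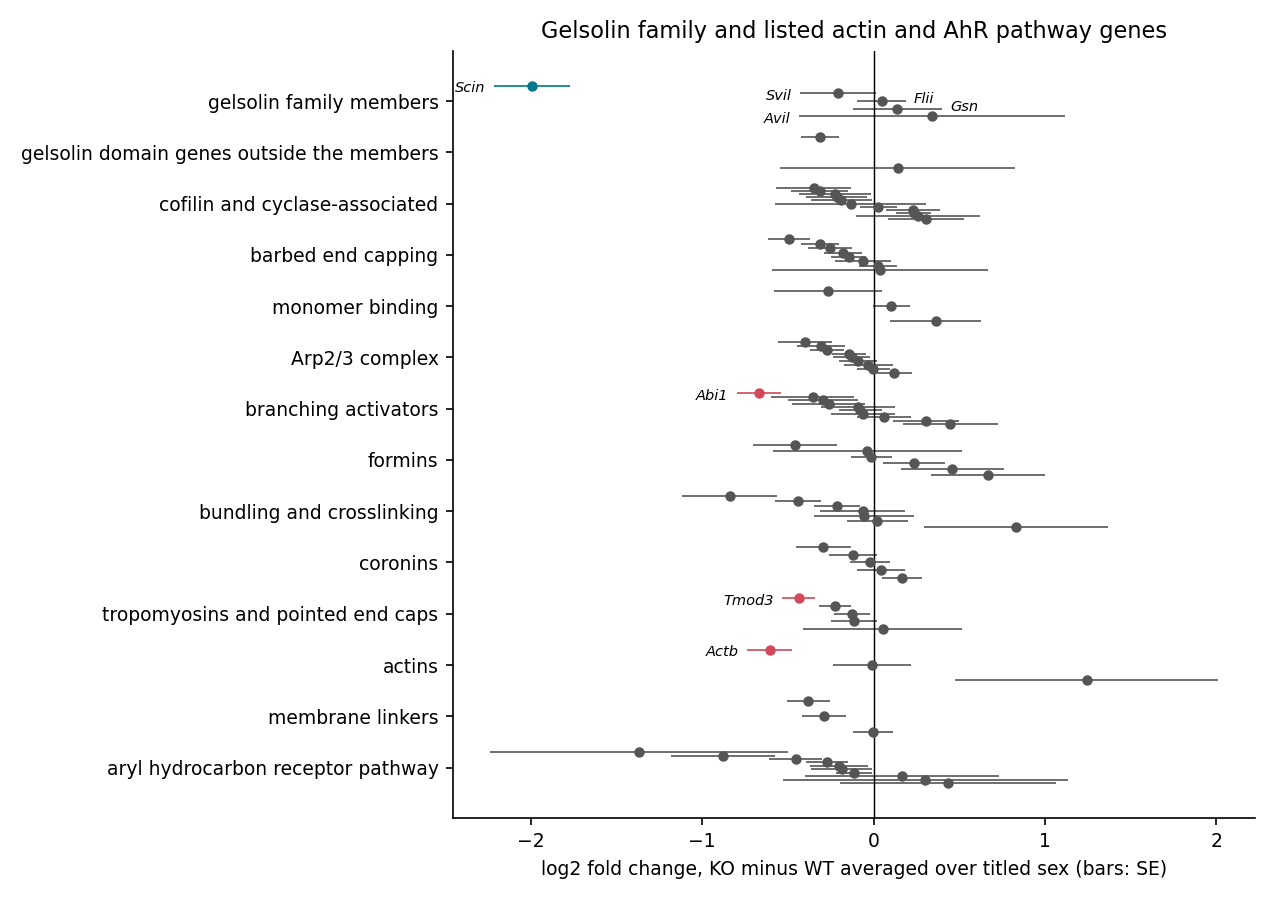
Log2 fold change, KO minus WT averaged over titled sex, for the tested gelsolin family genes, the listed actin regulators by role and the AhR pathway, with bars of 1 SE. Scin is teal and genes with an adjusted p under 0.05 are red, and Vill is not plotted because it failed the low-count filter. Scin at -1.99 lies apart from its relatives, which span from -0.21 to 0.34.

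The AhR pathway was listed because of its known link to Scin, and no member was called by edgeR, where 1.50% of all genes tested were. Of 13 listed genes 10 were tested and 7 were negative, with a median log2 fold change of -0.19. Over all genes tested 6538 of 13692 were negative and the median was 0.02. With so few genes, neither count is read as a result about the pathway. Ahr itself was 91.9 ± 15.2 CPM in KO and 127 ± 29.5 CPM in WT (SD, n = 6 each), with a log2 fold change of -0.45 (SE 0.16, adjusted p = 0.163), and among the alternatives run it passed only with no filter on low counts (adjusted p = 0.0435). Without the 4 libraries it was -0.49 (adjusted p = 0.309).

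Around Scin, 17 tested genes lay within 5 Mb on chromosome 12, with positions from the RefSeq annotation of GRCm38.p6. One of them was called lower in KO by edgeR, Pnpla8, a calcium-independent phospholipase 4.13 Mb away, at -0.48 (SE 0.11, adjusted p = 0.0388), where 0.898% of all genes tested were called lower. Its fold change was -0.52 without the 4 libraries and -0.53 to -0.45 with 1 library left out, but it lost the call without the 4 (adjusted p = 0.119) and without any 1 library other than KO male 2 or KO female 2. The nearest tested genes on either side did not pass: Arl4a, at 0.0218 Mb, had -0.21 (adjusted p = 0.576), and Ifrd1, at 0.0689 Mb, had -0.26 (adjusted p = 0.435). Of the 17, 9 were negative, and their median was -0.08, beside 6538 of 13692 negative and a median of 0.02 over all genes tested. Ahr lies 4.52 Mb from Scin on the same chromosome, and Esr2 lies 36 Mb away.

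**Figure D5:**
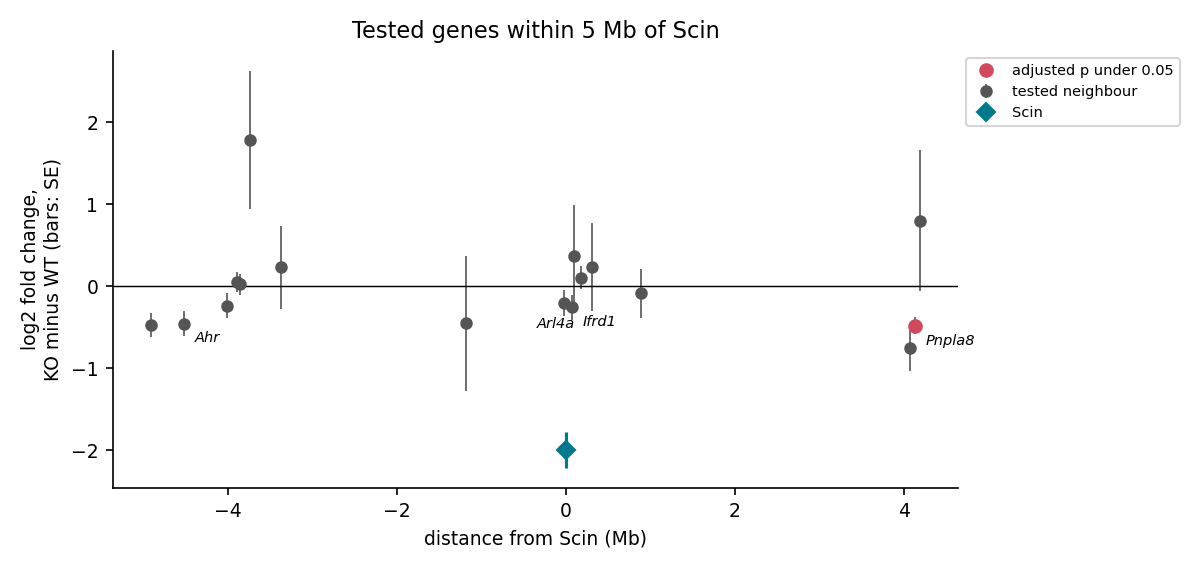
Log2 fold change, KO minus WT averaged over titled sex, of the 17 tested genes within 5 Mb of Scin against distance in Mb, with bars of 1 SE, and Scin as a diamond. Scin at -1.99 is lower than all 17 neighbours, the lowest of which is at -0.75.

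Transcripts of other cells differed between the same libraries, and fewer cells of a type cannot be told apart from less RNA per cell in bulk samples. Summed over 8 B cell genes, of which 5 were called higher in KO by edgeR, the level was 164 to 376 CPM in KO and 38.9 to 200 CPM in WT. Summed over 9 dendritic cell genes, of which 2 were called higher, it was 617 to 1476 CPM in KO and 227 to 730 CPM in WT. Summed over 8 neutrophil genes, of which 4 were called higher, it was 1.86 to 55.3 CPM in KO and 0 to 2.47 CPM in WT. These 3 of the 12 marker lists passed, each with an adjusted p of 0.0346 (two-sided exact permutation test on log2(CPM + 1)). Over all genes tested, 0.606% were called higher in KO. The 8 macrophage and monocyte genes in the table, with none called, summed to 131 to 354 CPM in KO and 18.0 to 295 CPM in WT (adjusted exact p = 0.109). The most abundant genes of these lists were Cd79b, Cd74, Ltf and Lyz2, and every listed gene in the table had counts in some library. Cd74 made up most of the dendritic cell sum, with a mean level of 772 CPM among the KO libraries and 315 CPM among the WT libraries. The dendritic cell sum therefore mainly follows Cd74, and the share of dendritic cells was not tested. The sums of 1 library, WT female 1, lay within the KO range for B cell, dendritic cell, macrophage and neutrophil genes. For neutrophil genes its 2.47 CPM was near the low end of that range, whose median was 15.2 CPM. The Scin level of WT female 1, 15.5 CPM, lay within the WT range, but 1 library cannot decide the part of other cells. The 8 Treg genes summed to 4693 to 5652 CPM in KO and 4106 to 5137 CPM in WT (adjusted exact p = 0.182). The other 7 lists, for plasma cells, mast cells, fibroblasts, endothelium, epithelium and tuft cells, megakaryocytes, and CD8 T and NK cells, had adjusted exact p between 0.0714 and 0.729. The part of other cells in the levels of Scin, Gsn, Flii and Svil was not tested.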

How the data were processed

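The authors deposited raw counts per gene symbol for 26609 genes in 12 libraries, and log2 values for 24584 genes. The submitters' processing notes name edgeR, Subread, featureCounts 1.5.0-p2 and HISAT2 2.0.5, with build GRCm38. Annotation release and strandedness of counting: not given in the sources used here. Nextera XT libraries were built from SMART-Seq v4 cDNA, per the labels' protocols, a route that does not mark strand. The deposited log2 values matched log2 CPM with TMM scaling and a prior count of 0.25 to within 5e-14. The members and gene lists were chosen with earlier results of these data known.

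Counts were filtered with filterByExpr (minimum count 10), which kept 13692 genes, scaled by TMM, and fitted with edgeR's quasi-likelihood test as 4 titled group means with robust dispersion (R 4.3.3, edgeR 4.0.16), two-sided, with Benjamini-Hochberg adjustment over all genes tested and calls at adjusted p under 0.05. The biological coefficient of variation common to all genes was 29.3%. SEs come from the F statistic, and 95% intervals from its t quantile. Vill and the marker sums were compared by exact permutation on log2(CPM + 1). DESeq2 1.42.0, limma 3.58.1 on the deposited log2 values, other scalings and filters, left-out libraries, a block of title numbers, and the summing of WT male 2 and 3, which carry the same title number, were alternatives. No 2 libraries of the same titled group were duplicates by their counts, and pairs across groups were not compared. Merged exon lengths came from GENCODE M21 and neighbours from RefSeq, which matched 96.6% of tested symbols. Steps were tested on simulated data. Named actin and AhR genes are those passing, or otherwise the one with the smallest p in each list, and Ahr, Capg and Vil1 were always named. The 5 genes most like Scin and the nearest tested genes on either side were also named.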

Additional observations from a re-analysis of the deposited data

Results flagged for a closer look

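Scin in WT male 2, at 24.1 CPM, stood apart from the other WT libraries, which lay between 11.5 and 16.2 CPM, by Dixon's test of the gap at the 95% level. That holds for CPM only. The log2 scale was not tested, and the deposited log2 values were 4.59 in WT male 2 and 3.53 to 4.02 in the others. The same test was made on 12 sets of 6 libraries, the KO and the WT libraries for each member, and chance marks about 1 in 20. The value lies farther from the KO libraries, and without WT male 2 the WT libraries still lay above every KO library.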

How the results depend on the processing

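Scin was -2.11 to -1.78 (log2, KO minus WT averaged over sex) over 19 alternatives. None of Gsn, Flii, Svil and Avil was called in any comparison under any of them. Vill was not counted there, also not in the run with no filter. Counts of called genes moved: for the average, 206 became 647 with DESeq2, 627 with no filter, 9 with the title number as a block, 14 without the 4 libraries, 31 with WT male 2 and 3 summed, and 12 to 543 with 1 library left out. Listed actin regulators, 3 called, became 5 with DESeq2, 0 in the block, 0 without the 4, 0 when summed, and 0 to 7 with 1 library left out. In males 10 became 419 with DESeq2, 443 with no filter, 0 in the block, 135 without the 4, 0 when summed, and 0 to 734 with 1 left out. With DESeq2, no filter and 1 left out, 0 became 23, 132 and 0 to 2 in females, 3, 106 and 0 to 4 for the interaction, and 5, 149 and 0 to 40 for female minus male, which had 6 without the 4. Directions turned on average for Gsn (-0.002361 in limma, -0.28 without the 4), Flii (-0.005232 without the 4) and Avil (-0.28 in limma, -0.66 without the 4). In males Gsn was -0.14 in limma. Without the 4, where KO male 3 was the only KO library in males, Gsn was -0.77, Svil -0.053 and Avil -0.77. The interaction was -0.23 for Scin and 0.21 for Avil without the 4, and -0.028 for Scin when summed. Female minus male of Avil was 0.024 in the block.

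With 1 library left out, the average ranged from -0.25 to 0.28 for Gsn, -0.070 to 0.14 for Flii, -0.35 to 0.094 for Svil and -0.15 to 0.62 for Avil. In males the ranges were -0.68 to 0.36 for Gsn, -0.12 to 0.29 for Flii, -0.27 to 0.63 for Svil and -0.14 to 1.34 for Avil. In females they were -0.15 to 0.37 for Gsn, -0.11 to 0.094 for Flii and -1.07 to 0.41 for Avil. The interaction ranged from -0.20 to 0.29 for Scin, -0.23 to 0.88 for Gsn and -0.31 to 0.11 for Flii, and female minus male from -0.56 to 0.38 for Avil. The cause of these changes was not tested. Title numbers did not pair libraries: 18 same-number pairs had a median correlation of -0.0389, none over 0.1. Depth limits Avil and Vill, whose counts were at most 29.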
